A study of Mus musculus with 4 samples.

Results

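Endothelial cells that held no transcript of the tip-cell genes Apln, Esm1, Angpt2 and Cxcr4 were picked from single-cell profiles of mouse mammary tumours, 495 cell barcodes of 36162 in all. A barcode counted as one of them when its unique molecular identifiers (UMIs, each standing for 1 captured transcript) of Cdh5, Pecam1, Egfl7, Emcn and Kdr summed to at least 4, those of C1qa and C1qb to at most 1, those of Krt8 and Krt18 to at most 2, and those of the 4 tip genes to 0. The 4 tumours came from 3 female FVB mice aged 13 to 14 weeks, all carrying MMTV-PyMT, K14Cre and Rosa-tdTomato. In MMTV-PyMT the mammary tumour virus promoter drives the polyoma middle T oncogene in mammary epithelium, and K14Cre acts from a keratin 14 promoter on the red reporter Rosa-tdTomato, so the oncogene and the Cre are driven from epithelial promoters. Tumours were digested with enzymes, red blood cells were lysed and dead cells were taken out with beads. Tumour 1 was collected from multiple mammary glands of mouse 1, tumour 2 from an inguinal gland of mouse 2, and mouse 3 gave both tumour 3, thoracic, and tumour 4, inguinal. No tumour-free gland and no treatment enters here, so the values below compare tumours and cell populations, with the mouse as the replicate.

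Endothelial cells line all blood and lymphatic vessels. Capillary cells exchange nutrients and carry GPIHBP1, which anchors lipoprotein lipase. Venous and venular cells admit leukocytes through selectins and ACKR1, arterial cells run on NOTCH signalling and the connexins of high-flow vessels, and lymphatic cells depend on PROX1 and guide immune cells with CCL21. During sprouting, tip cells lead a new vessel and express Apln, Esm1, Angpt2 and Cxcr4, and the cells behind them form the stalk and the lasting wall. Levels are given as CPM, a gene's UMIs scaled by all UMIs of the cells concerned to the usual common total, which does not correct for gene length; since the method tags transcript ends, levels are compared within a gene and not between genes.

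The libraries held 8434 to 9580 barcodes and 20281799 to 39370565 UMIs. Tumours 1 to 4 held 71, 54, 231 and 139 of these cells, which was 0.814% (95% Clopper-Pearson interval 0.636 to 1.03), 0.564% (0.424 to 0.735), 2.74% (2.40 to 3.11) and 1.47% (1.24 to 1.74) of the barcodes of each library. They made up 72.4%, 54.0%, 77.8% and 74.3% of all barcodes that met the endothelial limits, the remainder being 187 barcodes with at least 1 tip-gene UMI. Tumour 2 held the fewest of them by these limits and tumour 3 the most. With an endothelial sum of at least 6, however, tumour 1 had the lowest share of barcodes, 0.459% against 0.501% in tumour 2. The same held among barcodes of at least 1500 UMIs, with the limits applied at full depth, 0.365% against 0.564%. The median cell had 1200, 1975, 1938 and 1915 UMIs, and the cells of each tumour summed to 95816, 125068, 513191 and 296752 UMIs. A missing tip-gene UMI is also a matter of depth: the median was 1832 UMIs over all 495 cells and 2239 over the 187 with such a UMI. Of the 495 cells 65 sat at the minimum sum of 4, and 118 barcodes that met the other limits fell just short at 3. Those just inside had 1073 CPM of Gpihbp1 and those just outside 888 CPM. A keratin sum over its limit kept out 109 barcodes, a C1q sum 27 and both 1. Over the libraries 623 barcode sequences occurred more than once, but none of the 495 was chosen in more than 1 library, and 21 of them occurred as another barcode elsewhere. Intervals here cover counting error only.

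Endothelial markers that the limits did not use were present in these cells. Cldn5, the tight junction claudin of endothelium, was at 459, 304, 464 and 377 CPM in tumours 1 to 4, against 0.476 CPM in 17259 epithelial-gated barcodes (Krt8 and Krt18 sum of at least 4, no endothelial UMI; mean over 3 mice). All 20 genes of the pan-endothelial list had UMIs, and their summed level was 5181 to 6788 CPM over the 4 tumours, 348 to 476 CPM in mural-gated cells and 19.4 to 27.96 CPM in epithelial-gated cells. The epithelial gate allowed no endothelial UMI and the mural gate at most 1. The lower levels there thus follow in part from the choice of cells and are given as a description. The genes that set the limits are described only: Cdh5, the endothelial cadherin, was at 672 ± 34.9 CPM and Emcn, the sialomucin endomucin, at 870 ± 277 CPM (mean ± SD, n = 3 mice, tumours 3 and 4 summed).

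Markers of other cells were present beside these. The luminal epithelial list summed to 2926 to 5803 CPM over the tumours and to 23198 to 47633 CPM in epithelial-gated cells; its largest part was Wfdc18, a secreted milk-whey protein gene, at 2645 ± 1646 CPM over the mice. In tumour 2 a single barcode held 298 of the 305 macrophage-list UMIs. In tumours 3 and 4, 7 and 6 barcodes held 339 of 386 and 299 of 325 fibroblast-list UMIs, and the same list was at 0 in tumour 2. The mural list summed to 112 to 270 CPM. The part of free RNA and of doublets in these levels was not tested.

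Promoter sequences are shown for 3 genes named in the results below. They are Emcn, a gene of the limits that the lymphatic-marked cells lacked, Selp, which helped to mark a venous subset, and Gja4, which helped to mark an arterial one. Their transcripts were not confined to separate cells: Emcn had a UMI in 76 of 98 venous-marked and 46 of 77 arterial-marked cells. Each is the 250 bases before the RefSeq start, read 5′ to 3′ on the gene's strand in build GRCm38.p6, at chr3:137340828-137341077 (plus strand) for Emcn, chr1:164115014-164115263 (plus strand) for Selp and chr4:127314040-127314289 (minus strand) for Gja4. Of 5 genes looked up, Cldn5 among them, 4 had an entry, and Gpihbp1 had none. Capitals mark AGGAAG on either strand, a form of the core that ETS factors such as ERG bind.
Emcn: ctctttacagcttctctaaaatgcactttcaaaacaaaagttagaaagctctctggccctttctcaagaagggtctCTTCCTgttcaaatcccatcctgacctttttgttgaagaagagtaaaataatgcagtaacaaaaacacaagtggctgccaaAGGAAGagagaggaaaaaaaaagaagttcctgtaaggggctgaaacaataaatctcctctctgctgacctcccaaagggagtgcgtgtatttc
Selp: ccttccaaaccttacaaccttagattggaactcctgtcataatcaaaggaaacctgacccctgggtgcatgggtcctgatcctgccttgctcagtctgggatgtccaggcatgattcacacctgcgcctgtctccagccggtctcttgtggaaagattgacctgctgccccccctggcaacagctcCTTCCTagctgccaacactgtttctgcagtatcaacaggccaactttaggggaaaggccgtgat
Gja4: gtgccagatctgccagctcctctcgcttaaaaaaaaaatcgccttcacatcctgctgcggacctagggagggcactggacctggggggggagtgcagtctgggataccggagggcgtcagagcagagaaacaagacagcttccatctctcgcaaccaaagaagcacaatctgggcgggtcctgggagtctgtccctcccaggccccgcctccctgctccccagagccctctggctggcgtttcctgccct
AGGAAG was found at 2 places in Emcn, at 1 in Selp and at 0 in Gja4 and in Cldn5, and 29.5% of the 32817 RefSeq promoter windows of this length held it. AGATAA, searched on both strands in the same way, was in none of the 4 windows and in 9.99% of all windows. These are letter matches only, and none of the data here measured binding.

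Capillary genes were found in most of the cells of every tumour. Gpihbp1, the capillary anchor of lipoprotein lipase, stood at 1075, 2199, 1159 and 1348 CPM in tumours 1 to 4, or 1501 ± 609 CPM (SD, n = 3 mice), against 9.08 CPM in mural-gated and 1.52 CPM in epithelial-gated cells. Tumour 2 was the highest, and the other 3 lay close together. Of the cells 66.3% (95% interval 61.9 to 70.4) had a Gpihbp1 UMI, against 0.597% of epithelial-gated cells, whose median depth was 3549 UMIs. Aqp1, a water channel of continuous capillaries, was steadier, at 574, 696, 542 and 590 CPM.

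Fabp4, the fatty acid carrier of capillary cells, varied more: 543, 2087, 803 and 1345 CPM, again highest in tumour 2 and lowest in tumour 1. Its relative Fabp5, which epithelium also expresses, followed the same order of highest and next highest, with 230, 560, 185 and 350 CPM. Sparcl1, a matricellular gene, was at 584, 1015, 709 and 785 CPM. Rgcc, a cell-cycle regulator enriched in capillaries, was at 532, 632, 386 and 246 CPM, with both tumours of mouse 3 below the other mice. Cav1, the main caveolar coat protein, was at 115, 296, 175 and 222 CPM, and Cd300lg, the capillary surface receptor nepmucin, at 177, 224, 109 and 121 CPM. Btnl9, a butyrophilin-like gene of capillaries, reached 52.2, 48.0, 33.1 and 23.6 CPM. Tumour 2 was highest for 8 of these 9 genes, all but Btnl9.

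Other capillary markers were scarce or missing. Cd36, the fatty acid translocase, had 9 UMIs in all, and Meox2, a homeobox gene of fat and muscle capillaries, 19. Lpl, the lipase that GPIHBP1 binds, had 11 UMIs, all in tumour 3. Car4, Timp4, Tcf15 and Aqp7, which mark capillaries in lung, heart and fat, had 0 UMIs in 495 cells, which, taking 3 counts as the limit, allows a share of cells with a UMI of up to 0.606%.

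Venous genes were low apart from Lrg1. Lrg1, a secreted glycoprotein of inflamed venules, was at 678, 784, 967 and 950 CPM, but epithelial-gated cells also held 455 ± 143 CPM (SD, n = 3 mice). Among genes that epithelium nearly lacks, Selp, the P-selectin that captures leukocytes, was at 83.5, 48.0, 56.5 and 57.3 CPM. Vwf, the clotting factor of larger vessels, was at 41.7, 32.0, 48.7 and 47.2 CPM. Both rest on 4 to 29 UMIs a tumour, and no tumour stood apart. Ackr1, the chemokine decoy receptor of venules, was at 20.9, 23.99, 54.6 and 10.1 CPM, from 2, 3, 28 and 3 UMIs, so tumour 3 stood out. Icam1, the leukocyte adhesion ligand, was at 31.3 and 32.0 CPM in mice 1 and 2 and at 111 and 91.0 CPM in the tumours of mouse 3. Nr2f2, the venous fate factor COUP-TFII, followed with 31.3, 64.0, 89.6 and 77.5 CPM, although mural-gated cells held more of it (145 CPM). Ephb4, the venous ephrin receptor, was at 31.3, 88.0, 62.4 and 53.9 CPM. Epithelial-gated cells, which were deeper, also held it: 8.39% had an Ephb4 UMI against 11.9% of the endothelial cells. For Icam1 the shares were 4.32% and 14.7%. Sele, Vcam1, Ch25h and Il1r1 stayed at 40.0 CPM or less in every tumour.

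Arterial genes were lowest in tumour 3. Gja4, the arterial connexin 37, was at 271, 432, 70.1 and 172 CPM, a 6.15-fold range. Cxcl12, the chemokine ligand of the tip-cell receptor Cxcr4, was at 459, 416, 183 and 222 CPM, and Stmn2, a microtubule regulator found in arterial cells, at 209, 72.0, 64.3 and 104 CPM. Efnb2, the arterial partner of Ephb4, was at 62.6, 56.0, 29.2 and 57.3 CPM. Fbln5, an elastic fibre protein, was at 73.1, 64.0, 39.0 and 60.7 CPM. Dll4, a NOTCH ligand, was at 73.1, 64.0, 29.2 and 60.7 CPM, and the receptor Notch4 at 31.3, 64.0, 23.4 and 43.8 CPM. For all 7 genes tumour 3 was the lowest of the 4, and its sister tumour 4 of the same mouse was higher. Sema3g, Hey1, Hey2, Bmx, Sox17, Alpl and Jag1 stayed under 50 CPM, and Gja5 and Gkn3 had 0 UMIs.

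Lymphatic genes fell into an even pair and an uneven set. Nrp2, a semaphorin and VEGFC co-receptor, was at 167, 144, 232 and 216 CPM, and Flt4, the VEGFC receptor, at 52.2, 80.0, 66.3 and 64.0 CPM. Both were even over the tumours. Ccl21a, the lymphatic homing chemokine, was at 10.4, 95.9, 1576 and 310 CPM, from 1, 12, 809 and 92 UMIs. Its level is uncertain as to locus, since near-identical Ccl21 copies exist in the genome and the gene table held a second entry of that symbol with 0 UMIs. Lyve1, the hyaluronan receptor, had 0, 2, 29 and 0 UMIs. Prox1, Pdpn, Mmrn1, Reln, Nts and Fxyd6 stayed under 50 CPM in every tumour.

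**Figure D1:**
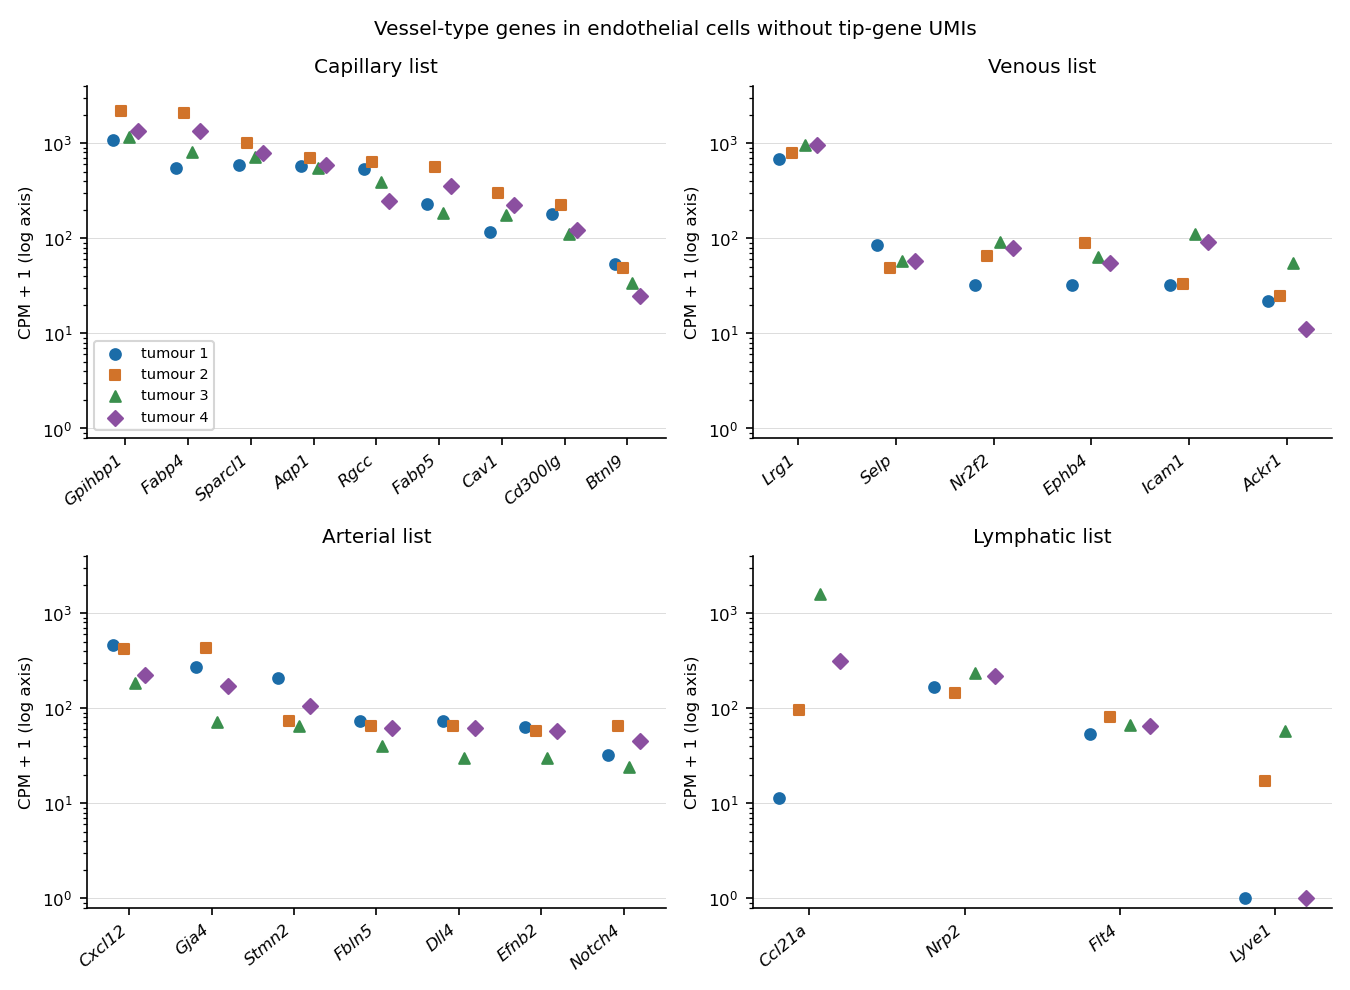
Level of each capillary, venous, arterial and lymphatic list gene that reached 50 CPM in any tumour, as CPM + 1 on a log axis, with 1 point per tumour. Tumour 2 is highest for 8 of 9 capillary genes, tumour 3 is lowest for 7 of 7 arterial genes, and Ccl21a runs from 10.4 to 1576 CPM. Of the arterial genes with a counting interval for tumour 3 against 4, only Gja4 had one that excluded 1.

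Counted per cell, 446 of 495 cells (90.1%) had at least 2 UMIs of capillary genes, 298 (60.2%) of venous, 119 (24.04%) of arterial and 74 (14.9%) of lymphatic genes. The same minimum was met by 36.0% of epithelial-gated cells for the capillary, 39.1% for the venous, 10.7% for the arterial and 1.20% for the lymphatic list, at their greater depth. With all cells thinned to 1500 UMIs the shares were 85.3%, 49.3%, 17.1% and 11.7% of the endothelial cells and 13.3%, 19.7%, 1.83% and 0.285% of the epithelial-gated ones, so each list, and the venous list most, includes UMIs that epithelial-gated cells also held. Of the 298 cells with venous UMIs 280, and of the 119 with arterial UMIs 110, also met the capillary minimum. The venous share was 28.2% in tumour 1 and 63.0%, 66.2% and 65.5% in the others. Tumour 1 was also the shallowest, and after thinning, which left out 120 of the 495 cells, the venous shares were 38.1%, 50.0%, 50.8% and 48.6%. The arterial share was 26.8%, 40.7%, 18.2% and 25.9%, and 19.0%, 33.3%, 12.4% and 16.8% thinned, lowest in tumour 3 both ways. In tumour 1 only 21 of 71 cells reached the thinned depth.

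Within the 495 cells, transcripts of narrower venous genes and of the arterial genes Gja4 and Stmn2 were seldom in the same cell. Selp, Sele, Ackr1 or Vwf had a UMI in 98 cells (9, 10, 52 and 27 in tumours 1 to 4), Gja4 or Stmn2 in 77 (15, 14, 23 and 25), both in 3, and neither in 323. Thus 3 of the 77 had the venous mark, which 19.8% of all 495 cells had. The arterial mark was in 15.6% of the 495. These splits were made after the values had been seen, so what follows describes them and is not tested. The genes that made a split are no finding between its sides.

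The 98 venous-marked cells had less of some capillary and arterial genes. Gpihbp1 was at 468, 533 and 628 CPM in them in mice 1 to 3 and at 1169, 2528 and 1406 CPM in the other cells, lower in 3 of 3 mice with no overlap. Cldn5 was at 234, 145 and 217 CPM against 494, 335 and 496 CPM, also without overlap. In mice 1 and 2 few UMIs lie behind the venous-marked values: 6 and 11 of Gpihbp1 and 3 and 3 of Cldn5. Rgcc was lower in 3 of 3 mice as well, at 262 ± 28.4 against 545 ± 174 CPM, from 3, 6 and 48 UMIs in the venous-marked cells. Cxcl12 was at 61.1 ± 75.5 against 415 ± 150 CPM, and the venous-marked cells held 1 of the 167 Gja4 UMIs and 2 of the 93 Stmn2 UMIs. Sparcl1, at 234, 873 and 542 CPM against 639, 1044 and 795 CPM, and Cd300lg, at 156, 145 and 70.4 CPM against 181, 239 and 126 CPM, were also lower in 3 of 3 mice. In mice 1 and 2 the venous-marked cells held 3 and 18 UMIs of Sparcl1 and 2 and 3 of Cd300lg. Aqp1, Fabp4 and Efnb2 showed no common order: Aqp1 was at 750 ± 322 against 584 ± 24.9 CPM, Fabp4 at 1155 ± 1185 against 1216 ± 725 CPM and Efnb2 at 30.6 ± 26.6 against 56.0 ± 17.0 CPM. Icam1 was higher in 3 of 3 mice, at 156, 97.0 and 222 CPM against 12.05, 19.1 and 68.8 CPM. These levels rest on 2, 2 and 41 UMIs against 1, 2 and 43. Of other venous-list genes, Lrg1 and Nr2f2 were higher in 2 of 3 mice and Ephb4 in 1. Emcn, which veins and capillaries share and which is a gene of the limits, showed no common order, with 1053 ± 349 against 837 ± 306 CPM. The median depth was 1867.5 UMIs with and 1801 without the venous UMIs. The mural list summed to 0, 48.5 and 417 CPM in them and to 289, 124 and 150 CPM in the others, and the fibroblast list in mouse 3 to 1278 against 760 CPM. The luminal list summed to 1561, 6788 and 2481 CPM in them and to 6457, 2164 and 3718 CPM in the others. The part of these other transcripts in the differences was not tested.

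The 77 arterial-marked cells had more of several other arterial genes. Cxcl12 was at 1524, 1066 and 937 CPM in them and at 207, 202 and 93.0 CPM in the other cells. Efnb2 was at 163, 129 and 89.7 CPM against 38.7, 31.9 and 32.4 CPM, and Fbln5 at 163, 129 and 99.6 CPM against 51.7, 42.5 and 39.5 CPM. For all 3 genes the lowest mouse with arterial marks was above the highest without. In mice 1 and 2 few UMIs lie behind 2 of them: Efnb2 had 3 and 4 against 3 and 3, and Fbln5 3 and 4 against 4 and 4. Ly6c1, a surface antigen of arterial and capillary cells, was at 1143, 1745 and 1006 CPM against 452, 425 and 493 CPM. Gpihbp1 was 1901 ± 904 against 1390.5 ± 497 CPM, higher in 3 of 3 mice, the opposite direction to the venous-marked cells. These directions are not independent. Only 3 cells had both marks, so the other cells here include most of the venous-marked ones, whose Gpihbp1 was low. Their part in this difference was not tested. Ephb4, of the venous list, was also higher in 3 of 3 mice (116 ± 11.6 against 46.5 ± 31.1 CPM, 17 and 45 UMIs), and Dll4 in only 2. Emcn, a gene of the limits whose level depends on the choice of cells, was lower in 3 of 3 mice, at 562 ± 247 against 949 ± 288 CPM. The mural list, whose cells also hold Gja4, summed to 125 ± 38.8 CPM in the arterial-marked cells and 206 ± 84.2 CPM in the others, and the luminal list to 2409.6 ± 332 against 4445 ± 1930.5 CPM. In mouse 3 the fibroblast list was at 2322 CPM in them against 674 CPM, and its part in the differences was not tested. Of the 11 lymphatic-marked cells described next, 5 were also arterial-marked, and the arterial-marked cells had 120 CPM of Lyve1 against 14.8 CPM, 66.8 CPM of Fxyd6 against 5.67 CPM and 26.7 CPM of Prox1 against 7.94 CPM over all tumours. The part of these 5 cells in the arterial values was not tested.

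**Figure D2:**
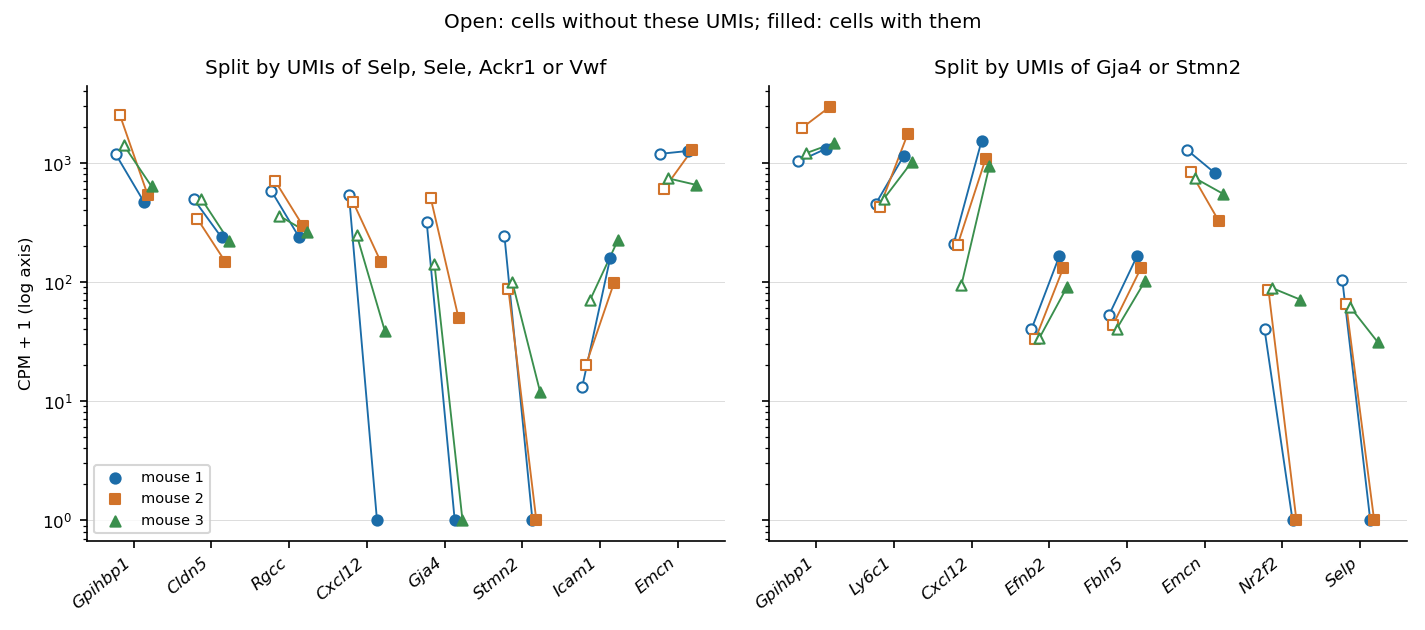
CPM + 1 on a log axis in each of 3 mice, for cells without (open) and with (filled) a UMI of the venous genes Selp, Sele, Ackr1 or Vwf (left) and of the arterial genes Gja4 or Stmn2 (right). Gpihbp1 and Cldn5 lie lower in the venous-marked cells of 3 of 3 mice, and Cxcl12, Efnb2 and Fbln5 higher in the arterial-marked cells of 3 of 3 mice. In mice 1 and 2 the marked cells held few UMIs of these: 6 and 11 of Gpihbp1, 3 and 3 of Cldn5, and 3 and 4 of Efnb2 and of Fbln5. Selp on the right and Gja4 and Stmn2 on the left show how seldom the marks met.

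A very small lymphatic group carried the Ccl21a signal. Cells with at least 2 UMIs of Prox1, Lyve1, Mmrn1 and Reln together, again a limit set after the values were seen, numbered 0, 1, 9 and 1 in tumours 1 to 4, or 2.22% of 495 (95% interval 1.11 to 3.94). In tumour 1 the count of 0 in 71 cells allows a share of up to 4.23%, again with 3 counts as the limit. The 11 cells held 843 of 914 Ccl21a UMIs, and also 9 of 16 UMIs of Pdpn, the podoplanin of lymphatic endothelium, and 6 of 7 of the neuropeptide gene Nts. They held 0 of 783 UMIs of Emcn, itself a gene of the limits, 1 of 514 of the VEGF receptor gene Flt1, 7 of 1373 of Gpihbp1 and 1 of 1124 of Fabp4. Cldn5 was present in them with 31 UMIs, or 1407 CPM against 398 CPM in the other 484 cells. Egfl7 and Cdh5, genes of the limits, carried them over the endothelial minimum with 46 and 16 UMIs.

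In tumour 3, 8 cells with at least 8 Ccl21a UMIs held 806 of its 809. In tumour 4, 3 such cells held all 92, and 1 of the 3 was lymphatic-marked. The other 2 had no UMI of Prox1, Lyve1, Mmrn1 or Reln. Of 56 barcodes with that lymphatic mark in the 4 libraries, 11 were among the 495, 7 had a tip-gene UMI, 36 were under the endothelial minimum and 2 over the keratin or C1q limit. Of those 36, 20 had any UMI of the 5 endothelial genes and 25 had a Ccl21a UMI. A Prox1 UMI was also found in 1.08% of epithelial-gated cells.

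**Figure D3:**
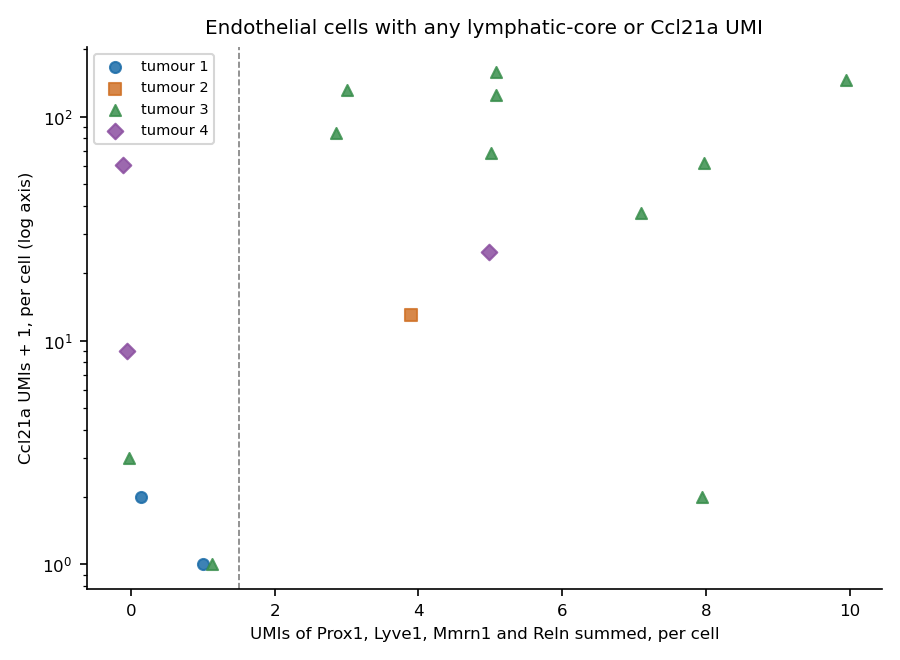
Each point is an endothelial cell without tip-gene UMIs that held any UMI of Ccl21a or of Prox1, Lyve1, Mmrn1 or Reln, with the sum of those 4 genes on the x axis (shifted slightly to part the points) and Ccl21a UMIs + 1 on a log y axis. Right of the dashed line are the 11 lymphatic-marked cells, 9 of them from tumour 3.

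Which transcripts set these cells apart from endothelial cells with tip-gene UMIs was tested with edgeR's quasi-likelihood test on UMIs summed per mouse, with the mouse as a block, the 13 genes of the limits left out and Benjamini-Hochberg adjustment over 1795 genes. Few genes differed: 3 passed an adjusted p of 0.05, which is 0.167% of those tested (0.0557% higher and 0.111% lower without tip-gene UMIs), and 143 had an unadjusted p under 0.05. Igfbp3, an insulin-like growth factor binding protein and known sprouting gene, was lower without tip-gene UMIs, with 741, 832 and 558 CPM in mice 1 to 3 against 1002, 1579 and 1267 CPM. Its log2 fold change was -0.91 (SE 0.13, adjusted p = 0.00925, lower in 3 of 3 mice). Kcne3, a potassium channel subunit enriched in tip cells, was lower too, at 261, 432 and 163 CPM against 564, 657 and 396 CPM, by a log2 fold change of -0.99 (SE 0.16, adjusted p = 0.0110, edgeR). Slco2a1, the prostaglandin transporter, was higher without tip-gene UMIs, at 616, 288 and 436 CPM against 313, 104 and 234 CPM, with a log2 fold change of 1.04 (SE 0.16, adjusted p = 0.00957, edgeR, 3 of 3 mice). The values did not overlap between the populations for Igfbp3, but Kcne3 in mouse 2 without was above mouse 3 with tip-gene UMIs, and Slco2a1 overlapped in the same way. The 3 genes lie at chr11:7206086-7213923, chr7:100176502-100184869 and chr9:102988712-103096002 (GRCm38, in that order of Igfbp3, Kcne3 and Slco2a1).

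Just short of the threshold were 3 genes with an adjusted p of 0.0507 each in edgeR. Gpihbp1 was at 1501 ± 609 CPM without against 2266 ± 952 CPM with tip-gene UMIs (log2 fold change -0.51, SE 0.10, lower in 3 of 3 mice). Lrg1 had a log2 fold change of 0.73 (SE 0.14) and Prcp, a lysosomal carboxypeptidase, of 1.09 (SE 0.21), both higher without tip-gene UMIs in 3 of 3 mice. Lrg1 and Prcp were named after their values were seen. Of the luminal epithelial list, whose cells also hold Lrg1, 4 genes were tested and 0 passed, but 2 had an unadjusted p under 0.05: Wfdc18 was higher without tip-gene UMIs in 3 of 3 mice (log2 fold change 0.47) and Lcn2 in 2 of 3 (0.34). The part of epithelial RNA in the Lrg1 value was not tested. Gpihbp1 passed in 10 of 16 alternative fits, with edgeR or DESeq2 adjusted p from 0.00152 to 1.00.

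Of the tip and sprouting list, 13 of 19 genes were tested. Since the populations were split on tip-gene UMIs, the direction of this list can follow from the choice of cells and is given as a description. Igfbp3 and Kcne3 passed, both lower, and 12 of the 13 had a negative sign, with a median log2 fold change of -0.32 against 0.01 over all genes tested. Among those that did not pass, the basement membrane collagen gene Col4a1 was at 1015 ± 35.4 CPM without and 1388 ± 127 CPM with tip-gene UMIs. In the capillary list 0 of 8 tested genes passed, with a median of -0.22, and 4 of the 8 had an unadjusted p under 0.05. In the lymphatic list 2 genes were tested and 0 passed. Ccl21a was at 10.4, 95.9 and 1112 CPM without and at 0, 2428 and 1587 CPM with tip-gene UMIs (log2 fold change -1.50, adjusted p = 0.293, edgeR). Cells with tip-gene UMIs and at least 8 Ccl21a UMIs numbered 0, 1, 7 and 0 in tumours 1 to 4. Of the pan-endothelial list 0 of 18 passed; Cldn5 was 398 ± 83.0 CPM without and 415 ± 4.38 CPM with tip-gene UMIs, and Flt1 641 ± 186 and 688 ± 65.1 CPM. The vascular signalling (9 tested), flow and quiescence (5), junction (6), inflammation and antigen presentation (7), proliferation (8), immediate early (5) and hypoxia (5) lists likewise had 0 genes past the threshold. The flow-induced factor Klf2 was at 79.2 ± 13.6 and 64.8 ± 33.9 CPM, the immediate early gene Fos at 322 ± 128 and 289 ± 121 CPM and the class I gene H2-K1 at 377 ± 78.7 and 319 ± 139 CPM. Gja4 was at 271, 432 and 107 CPM without and at 20.9, 200.3 and 265 CPM with tip-gene UMIs, with no common direction in the mice. These numbers of tested genes are those that passed the count filter, not whole lists.

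The 3 calls depended on the method. Over 16 alternatives Igfbp3 passed in 13 (edgeR or DESeq2 adjusted p from 9.2e-12 to 0.845), Slco2a1 in 13 and Kcne3 in 11, the last 2 with an adjusted p of up to 1.00. DESeq2 called 0 genes (20 at an unadjusted p under 0.05), and so did edgeR without the mouse term. Without mouse 3, which gave 370 of the 495 cells, 2 genes passed, neither of them among the 3, and without mouse 1, whose library was shallowest, 48 passed, with all 3 among them. Among cells of 2000 to 6000 UMIs in both populations, which narrows the difference in depth, 14 genes passed, again with all 3 among them. With every cell thinned to 1500 UMIs 8 genes passed, with Igfbp3 and Slco2a1 but not Kcne3 among them (adjusted p = 0.118, edgeR). Thinned cells kept the population that their full-depth UMIs gave them. This fit thus cannot show how depth bears on a missing tip-gene UMI.

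**Figure D4:**
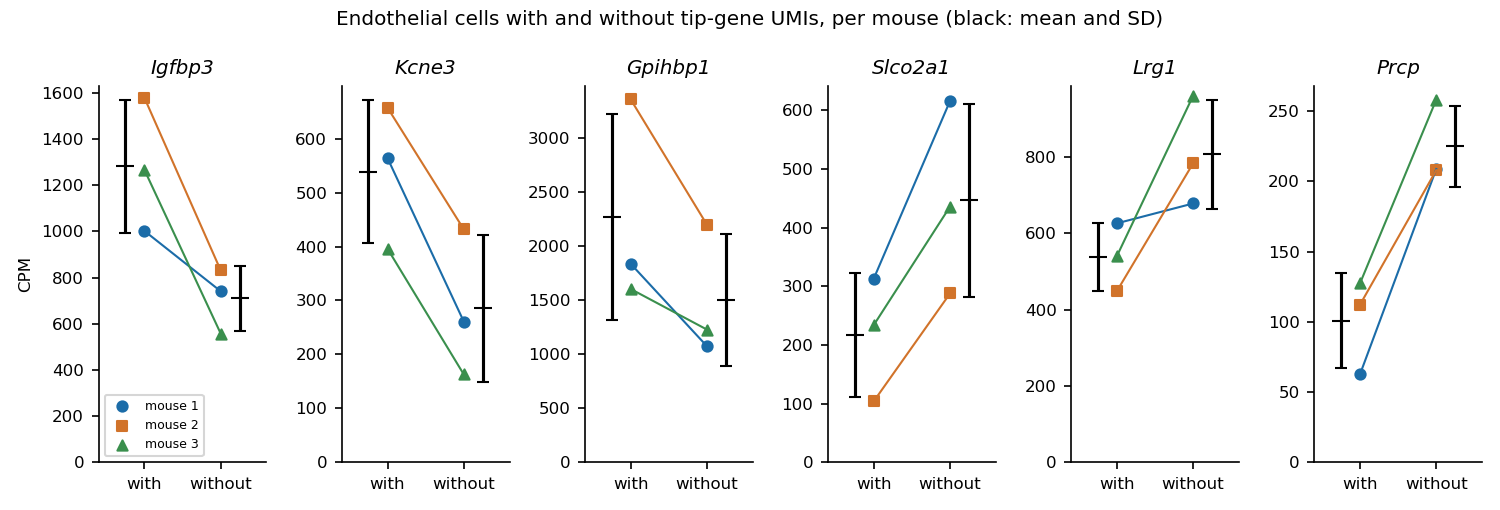
CPM in endothelial cells with and without tip-gene UMIs, 1 line per mouse, with the mean and SD over 3 mice in black. Igfbp3, Kcne3 and Gpihbp1 fall and Slco2a1, Lrg1 and Prcp rise from with to without in 3 of 3 mice; only Igfbp3, Kcne3 and Slco2a1 were under an adjusted p of 0.05.

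Against cells gated on genes of mural cells, which are pericytes and smooth muscle cells, the differences were large. Mural-gated barcodes numbered 270 and had a Rgs5, Cspg4, Pdgfrb, Notch3 and Higd1b sum of at least 4, an endothelial sum of at most 1 and the same keratin and C1q limits. The mural list summed to 6074 to 10165 CPM in them and the fibroblast list to 3965 to 9312 CPM, above the mural list in tumour 3 (9278 against 6074 CPM), and 160 of the 270 had at least 5 fibroblast-list UMIs. The part of fibroblast transcripts in the Mgp, collagen and Lpl differences below was not tested. The same edgeR test called 417 of 1613 genes (25.9%), 220 higher (13.6%) and 197 lower (12.2%) in the endothelial cells. All 13 tested genes of the pan-endothelial list were higher, with a median log2 fold change of 5.45 (5.43 with Aplnr at the bound given below) against -0.02 over all genes tested. Since the limits count endothelial and mural genes, the direction of the pan-endothelial and mural lists follows from the choice of cells and is given as a description. The smallest was 2.22 for Esam, an endothelial adhesion molecule, and among the largest were the phosphatase gene Ptprb (6.39), Clec14a (6.21), Icam2 (5.59), Ramp2 (5.57), Cd34 (5.45) and Mmrn2 (5.28). Flt1 was at 641 ± 186 against 79.8 ± 24.2 CPM (log2 fold change 2.44, SE 0.25, adjusted p = 2.1e-07, edgeR). Aplnr, the apelin receptor, had 202 UMIs in the endothelial cells and 0 in 658681 mural UMIs, which makes it at least 43.0-fold higher, taking 3 counts over the mural group as the floor. On the same floor Fam167b was at least 93.7-fold higher, Kcne3 44.9-fold, Myct1, an endothelial MYC target, 34.7-fold, Adgrl4, an adhesion receptor of endothelium, 28.8-fold, and Mfng, a NOTCH-modifying glycosyltransferase, 23.6-fold.

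The capillary list divided. Of 9 tested genes 6 were higher than in mural-gated cells and 2 lower. Gpihbp1 was higher by 6.87 on the log2 scale (SE 0.34, adjusted p = 1.5e-11, edgeR), Cd300lg by 5.20, Aqp1 by 4.92, Rgcc by 3.25, Cav1 by 2.09 and Fabp4 by 0.86. Lpl was lower, at 0, 0 and 13.6 CPM in mice 1 to 3 against 197, 246 and 291 CPM (log2 fold change -4.81, SE 0.41, adjusted p = 1.8e-08, edgeR). Of this pair of binding partners, the lipase was thus higher in mural-gated cells and its anchor in the endothelial ones. Fabp5 was lower by a log2 fold change of -0.84 (adjusted p = 0.00338, edgeR), and Sparcl1, at 779 ± 219 against 844 ± 314 CPM, did not pass.

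Of the venous, arterial and lymphatic lists only 1, 2 and 1 genes were tested. Lrg1 (2.86), Cxcl12 (1.80) and Nrp2 (2.75) were higher in the endothelial cells, and the arterial gene Gja4 did not pass: it was at 271, 432 and 107 CPM against 106, 144 and 123 CPM (adjusted p = 0.271, edgeR). Without mouse 3 its log2 fold change went from 0.51 to 1.40 (adjusted p = 0.00153, edgeR), the range over all alternatives being 0.00153 to 0.997. All 7 tested vascular signalling genes were higher, among them Id1 (4.56) and Id3 (1.66), targets of BMP and ALK1 signalling, and S1pr1 (3.92), the sphingosine phosphate receptor that steadies junctions. Of 5 tested junction genes 4 were higher, with Cldn5 at 5.90 and the connexin 43 gene Gja1 at 1.84. The class I gene H2-D1 (0.74), the stem cell antigen Ly6a (2.17) and Ly6c1 (7.30) were higher, and H2-K1, B2m, Bst2 and Isg15 did not pass. Of the tip and sprouting list Kcne3, Cd93, a receptor in angiogenesis (5.59), and Igfbp3 (4.63) were higher. The matrix genes Col4a1, at 1015 ± 35.4 against 970 ± 117 CPM, and Sparc, at 5653 ± 758 against 5841 ± 1915 CPM, did not pass.

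Lower in the endothelial cells were contractile and matrix genes. Mgp, matrix Gla protein, was at 155 ± 95.5 against 8516 ± 760 CPM (log2 fold change -5.63, SE 0.23, adjusted p = 2.8e-12, edgeR). The smooth muscle actin gene Acta2 was lower by a log2 fold change of -5.54, the intermediate filament gene Des by -5.90, Ndufa4l2, a pericyte-enriched mitochondrial gene, by -5.68 and Foxs1, a pericyte transcription factor gene, by -6.44. The smooth muscle gamma actin gene Actg2 (-5.95), the guanylate cyclase subunit Gucy1a1 (-5.77) and the potassium channel genes Kcnj8 (-3.65) and Abcc9 (-1.62) were lower as well, and all 4 tested mural markers were among these. All 5 tested fibroblast genes were lower too, at -3.96 for Postn, -4.04 for Col1a1, -4.27 for Dcn, -4.38 for Col3a1 and -4.48 for Col1a2. The milk gene Csn3 (-1.07) and Lcn2 (-0.98) were lower, but among barcodes with no UMI of C1qa, C1qb, Krt8 or Krt18 their log2 fold changes were 0.51 and 0.043 and neither passed (adjusted p = 0.313 and 0.925, edgeR). Over all alternatives the adjusted p of edgeR or DESeq2 ran from 5.5e-10 to 0.313 for Csn3 and from 2.3e-08 to 0.925 for Lcn2. Counts of calls were 802 without mouse 1 and 731 without mouse 2, against 417, with 3950 and 3699 genes tested.

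Since mouse 3 gave tumour 3 (thoracic gland) and tumour 4 (inguinal gland), these could be compared within an animal, but with 1 library each there is no replicate check. CPM ratios are given with exact conditional binomial intervals. Of 2900 genes at 50 CPM or more in either tumour, 134 (4.62%) differed by over 2-fold, 51 (1.76%) higher in tumour 3 and 83 (2.86%) higher in tumour 4. The number was 216 with an endothelial sum of at least 6, 233 with no C1q or keratin UMI and 335 in thinned cells. Among list genes the thoracic tumour had more Ackr1 (28 against 3 UMIs, 5.40-fold, 95% interval 1.67 to 27.7), Ccl21a (809 against 92 UMIs, 5.08-fold, 4.09 to 6.38), the stress gene Atf3 (2.48-fold, 1.07 to 6.68) and Cd74, the class II invariant chain (2.10-fold, 1.19 to 3.91). Lyve1 had 29 UMIs against 0, at least 5.59-fold higher with 3 counts as the floor. In tumour 3 the 9 lymphatic-marked cells held 807 of the Ccl21a UMIs, and in tumour 4 the single one held 24. The inguinal tumour had more Igfbp3 (333 against 947 CPM, 2.84-fold, 2.34 to 3.46), Mcam, the endothelial adhesion molecule CD146 (2.68-fold, 1.65 to 4.44), Gja4 (70.1 against 172 CPM, 2.45-fold, 1.57 to 3.86) and Csn3 (2.72-fold). Dll4 was 2.08-fold higher there, with an interval of 0.988 to 4.42 that includes 1. Higd1b, a pericyte gene, was 4.32-fold higher, from 8 and 20 UMIs, and the mural list was at 177 and 270 CPM. Col1a1, a fibroblast collagen gene, was 2.01-fold higher there. Higd1b and Col1a1 turned to higher in tumour 3 when the endothelial sum had to reach 6.

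**Figure D5:**
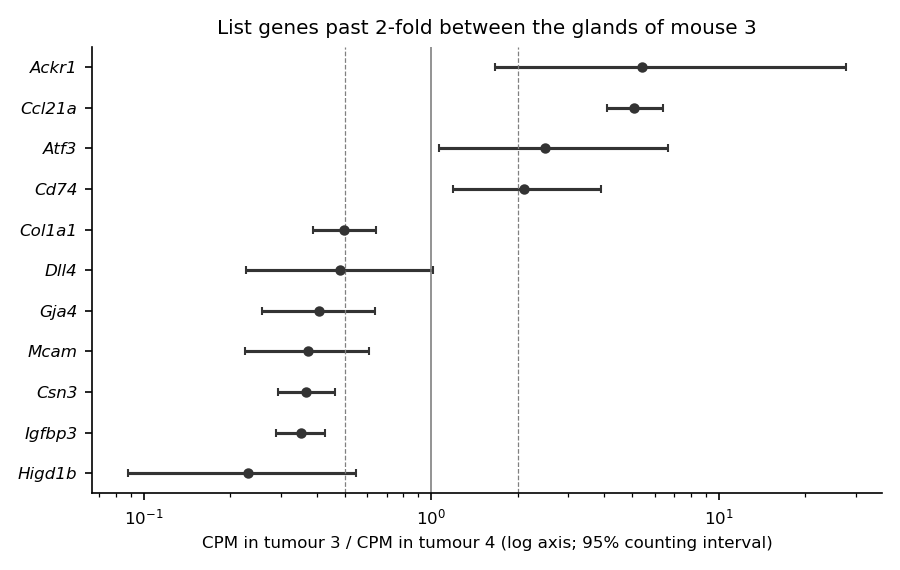
Ratio of CPM in tumour 3 (thoracic gland) to tumour 4 (inguinal gland) of mouse 3 on a log axis, for list genes past 2-fold (dashed lines) at 50 CPM or more, with 95% exact intervals that cover counting error only; Lyve1, at 0 in tumour 4, is not drawn. Ackr1, Ccl21a, Atf3 and Cd74 lie above 2 and Higd1b is the lowest.

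By list, 2 of 4 lymphatic and 1 of 6 venous genes at 50 CPM or more were past 2-fold towards tumour 3 and 0 towards tumour 4. Of the arterial genes 2 of 6 and of the tip and sprouting genes 3 of 15 were past it towards tumour 4 and 0 towards tumour 3. Over all genes the shares were 1.76% towards tumour 3 and 2.86% towards tumour 4. Both lymphatic genes, Ccl21a and Lyve1, rest on the same 9 lymphatic-marked cells of tumour 3. Dll4, whose interval includes 1, is in both of these lists, and Gja4 is the other arterial gene. None of 8 capillary and 19 pan-endothelial genes passed 2-fold in either direction. In the venous list, Icam1 had a ratio of 1.22 (0.760 to 2.01) and Lrg1 of 1.02 (0.877 to 1.18).

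Across all 4 tumours, other list genes with wide ranges at 100 CPM or more were of several kinds. Kcne3 was at 261, 432, 138 and 206 CPM, lowest in tumour 3. Bmpr2, a BMP receptor, was at 104, 40.0, 33.1 and 60.7 CPM, highest in tumour 1. The DNA synthesis genes Tyms, at 62.6, 192, 111 and 101 CPM, and Pclaf, at 52.2, 152, 72.1 and 118 CPM, were highest in tumour 2. So was the interferon-induced gene Isg15, at 41.7, 296, 99.4 and 74.1 CPM. The immediate early genes Junb, at 219, 480, 754 and 677 CPM, and Egr1, at 20.9, 40.0, 101 and 91.0 CPM, were higher in both tumours of mouse 3 than in mice 1 and 2. Cd74 was highest in tumour 3, at 20.9, 48.0, 113 and 53.9 CPM. The other ranges were those of markers of other cells: the macrophage genes Lyz2, Tyrobp and Fcer1g reached 1527, 400 and 312 CPM in tumour 2, where 1 barcode held most macrophage UMIs, and the pericyte gene Rgs5 115 CPM in tumour 1. The collagen genes Col1a1, Col1a2 and Col3a1 were at 0 in tumour 2 and at 182 to 465 CPM in tumours 3 and 4.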

How the data were processed

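The 4 libraries were made by droplet single-cell RNA sequencing of tumour cells. The authors deposited whole UMI counts for each gene in each barcode, not normalized, with Cell Ranger 2.2.0 and builds GRCm38 and mm10 named in the submitters' processing notes; further settings are not given in the sources used here. Barcodes were taken as deposited, with no further cell filter and no doublet caller. Counts were summed per mouse, tumours 3 and 4 of mouse 3 together, and tested with edgeR 4.0.16 (R 4.3.3; filterByExpr, TMM, quasi-likelihood, the mouse as a block because both populations come from the same animals); DESeq2 1.42.0 was an alternative. Intervals are exact 95% ones (scipy 1.17.1). The edgeR step was tested on simulated data. The limits, members and gene lists were chosen with earlier results of these data known. Genes named were the list genes past 0.05 in 3 of 3 mice with the 12 highest and 12 lowest fold changes at 20 CPM or more, the first member of each list that was tested, the 6 highest and 6 lowest of all genes at 50 CPM or more, vessel-list genes at 50 CPM or more in any tumour, the 12 other list genes of widest range at 100 CPM or more, and the 6 highest and 6 lowest ratios of tumour 3 to 4; genes at 0 in a tumour have no range and were added. Other alternatives were the count filter, size factors, stricter limits, thinning and leaving out a mouse or tumour.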

Additional observations from a re-analysis of the deposited data

How the results depend on the processing

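Against cells with tip-gene UMIs, the count of 3 called genes became 36 with no count filter (its median log2 fold change 0.18 against 0.01), 0 with DESeq2, 14 in cells of 2000 to 6000 UMIs, 8 in thinned cells, 9 with an endothelial sum of at least 6 and 13 with no UMI of C1qa, C1qb, Krt8 or Krt18, and it ran from 2 to 48 when a mouse or a tumour was left out. Chosen after seeing the data, leaving out barcodes with 5 or more UMIs of other cell types' markers, luminal epithelial ones not counted, gave 14. It took out 29 endothelial barcodes without tip-gene UMIs, although 125 such barcodes held at least 5 luminal-list UMIs. Leaving out lymphatic-marked barcodes, chosen in the same way, gave 18. Against mural-gated cells the count of 417 became 1106, 257, 130 and 262 under the first 4 of these, with a leave-one-out range of 348 to 802. Without the replicate block, that is without pairing populations by mouse, the counts were 0 and 363. Genes past 2-fold between tumours 3 and 4 numbered 216 with the sum of at least 6, 233 with no C1q or keratin UMI and 335 thinned, against 134. Under these 3 settings the share of barcodes moved to 0.459% and 0.365% in tumour 1 (the first and the last), 0.397% in tumour 2 (no C1q or keratin UMI), 1.85% and 1.84% in tumour 3 (the first and the second) and 0.955%, 1.06% and 1.23% in tumour 4. With no C1q or keratin UMI the log2 fold changes against mural-gated cells turned to 0.51 for Csn3 and 0.043 for Lcn2, and with the sum of at least 6 the log2 ratios of tumour 3 to 4 turned to 1.55 for Col1a1 and 2.15 for Higd1b. The cause was not tested, beside the smaller numbers of cells and genes that these settings leave. Of the recomputed values for single genes, 816 kept their direction and side of the threshold or stayed within the spread, 12 moved, 15 were weaker, 12 stronger and the 4 above turned. In tumours 1 and 2, with 71 and 54 cells, a level of 50 CPM rests on few UMIs, and tumour 1 was also the shallowest.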
